A study of Mus musculus with 8 samples.

Results

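The genes for organic anion transporting polypeptides, whose symbols start with Slco, and the genes of solute carrier family 22, whose symbols start with Slc22a, were compared across cultured mouse hepatocytes with and without perturbed heme oxygenases. A gene was a member if its symbol had one of these starts and a probe set was annotated to that symbol alone. Each of the 38 members, 15 Slco and 23 Slc22a genes out of 19937 genes tested, was represented by 1 such probe set. Slc22a28, annotated only on a probe set shared with Slc22a29 and Slc22a30, is no member. No filter on low signal was applied, so all 38 members entered the tests. The mean log2 signal of 10 members lay above 8.16, the median of all genes tested, and that of 28 lay below it. The arrays carry no detection call here, so a dim probe set is not shown to be an absent transcript.

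Primary hepatocytes of male BALB/c mice were measured on 8 arrays, 2 in each of 4 groups. The arrays labelled HO1 knockout came from HO1-/- cells given a scrambled short hairpin RNA (shRNA). The HO2 knockdown arrays came from HO1+/+ cells given an shRNA against HO2, the arrays labelled combined from HO1-/- cells given the HO2 shRNA, and the control arrays from HO1+/+ cells given the scrambled shRNA. All cells, controls included, carried a lentiviral pLKO.1 vector, were kept in puromycin for 3 days, received 1 µM dexamethasone for 30 min and were harvested 28 h later. A single hairpin against HO2 is named, and the labels used here state no age. Replicates are called biological, but nothing says that they came from separate mice, so each p-value reflects only how far these arrays spread, which may be technical. Genotype and hepatocyte preparation cannot be told apart.

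The gene targeted by the hairpin, Hmox2, was lower where the hairpin was used. It had log2 signals of 8.32 and 8.38 in HO2 knockdown and 9.26 and 9.33 in the arrays labelled combined, and 11.59 and 11.60 in the arrays labelled HO1 knockout, against 11.41 and 11.57 in control. The hairpin left 11.4% of the Hmox2 signal in HO1+/+ cells and 20.3% in HO1-/- cells. The Hmox1 signal was higher, not lower, in the HO1-/- arrays. It was 11.98 and 11.97 in the arrays labelled HO1 knockout and 12.40 and 12.47 in those labelled combined, against 11.46 and 11.40 in control. Which exons were deleted is not stated in the labels, and such a probe set can also read the remainder of a transcript, so directions for HO1 rest on the labels.

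Markers of liver cells moved with both perturbations. Of 21 hepatocyte markers analysed, 17 had a mean level above the median of all genes, and 18 rose and 1 fell in HO2 knockdown against control, and their summed linear signal ran from 130439 to 133985 in HO2 knockdown and from 140738 to 144428 in the arrays labelled combined, and from 92191 to 94052 in the arrays labelled HO1 knockout, against 73229 to 73907 in control. The summed signal of 20 macrophage and Kupffer cell markers moved with the genotype instead: 39809 to 40990 in the arrays labelled HO1 knockout, 38109 to 40426 in those labelled combined and 7237 to 7532 in HO2 knockdown, against 8349 to 8617 in control. In such bulk samples fewer cells of a type and less RNA per cell cannot be told apart. What part these marker shifts have in the results below was not tested.

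Hepatocytes draw bile acids, hormones, bilirubin and drugs out of the blood through carriers in the membrane that faces the sinusoid. The organic anion transporting polypeptides carry large amphipathic anions without sodium, whereas family 22 holds carriers of organic cations, of carnitine and of smaller organic anions. What is taken up is conjugated and then pumped out by ABC transporters. Bilirubin, made from the biliverdin that heme oxygenases release, reaches bile by this route, and its conjugates that escape to blood are retrieved by hepatic organic anion transporting polypeptides.

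With HO2 shRNA, the hepatocyte uptake carriers Slco1a4 and Slco1b2, the prostaglandin carrier Slco2a1 and the imprinted Slc22a18 rose, and Slco3a1 fell, in cells of either genotype. In HO2 knockdown against control, 6 of the 38 members rose, 6 fell and the other 26 were not called. A gene is called where limma's p, adjusted across the whole table by the Benjamini-Hochberg method, is under 0.05. Of all genes tested 33.2% were called in that comparison, 16.5% higher and 16.7% lower. In the arrays labelled combined against those labelled HO1 knockout, 4 members rose, 2 fell and 32 did not pass, and 23% of all genes were called, 10.2% higher and 12.8% lower. Those 5 genes made up 41.7% of the members called in the first comparison and 83.3% of those called in the second, and these 2 comparisons share no arrays. Over all genes, calls in the same direction in both made up 44.3% and 63.9%. The share of members called was not above that of all genes in either comparison. Called genes are unevenly spread over levels: 50.5% of genes above the median level and 15.9% of those at or below it were called in the first comparison, and 38.2% and 7.8% in the second, while Slco1a4 and Slco1b2 lie below that median. The median log2 fold change was -0.09 for the members and -0.07 for all genes in the first comparison, and 0.0044 and 0.01 in the second.

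**Figure D1:**
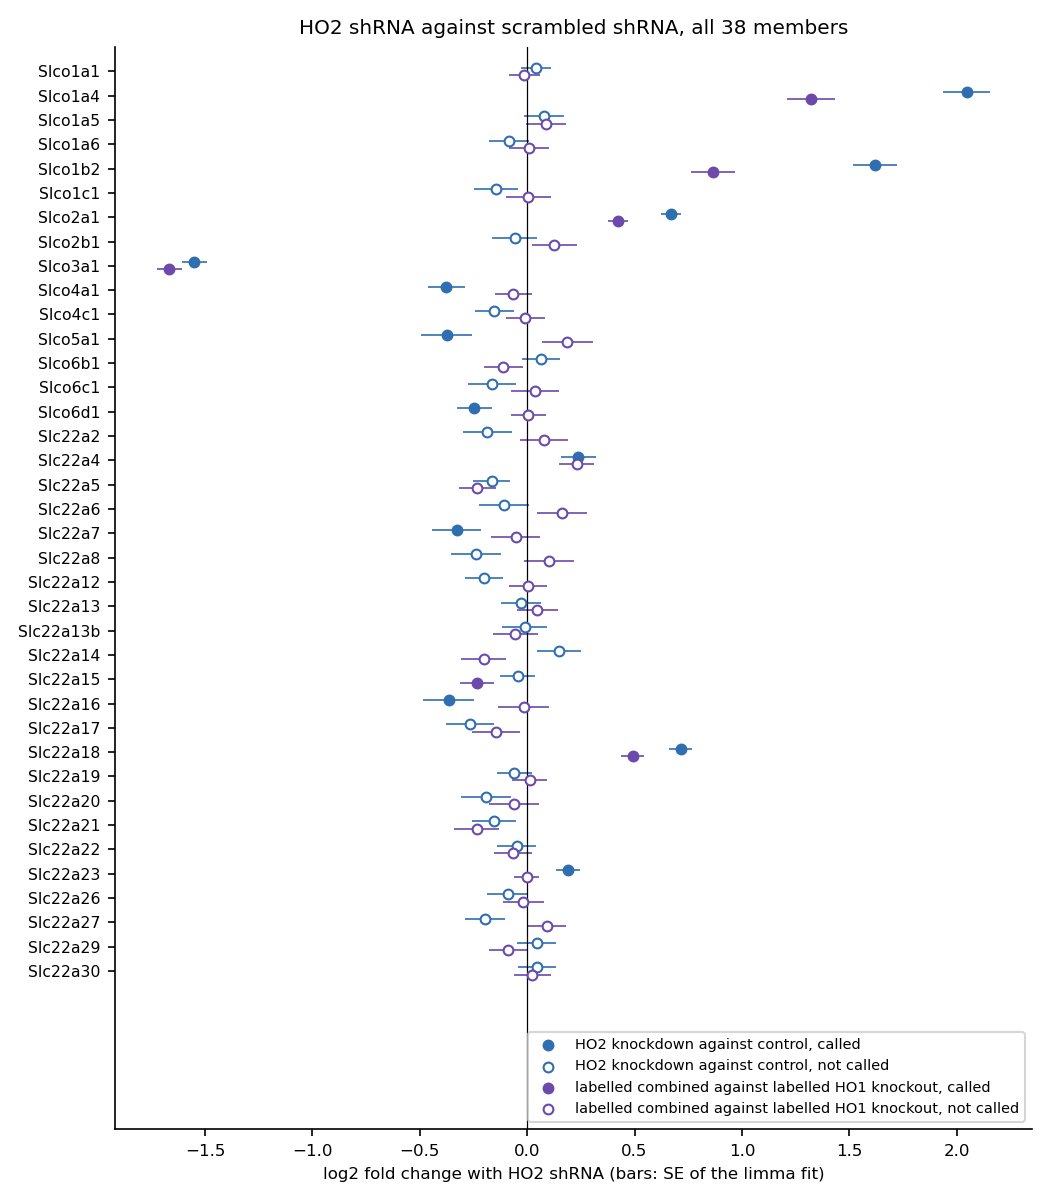
Log2 fold changes of all 38 members (rows) with HO2 shRNA, as circles with standard errors of the limma fit: HO2 knockdown against control in blue, arrays labelled combined against those labelled HO1 knockout in purple. Filled circles are called; Slco1a4, Slco1b2, Slco2a1 and Slc22a18 lie to the right of 0 and Slco3a1 to the left in both comparisons.

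The Slco1 genes encode the organic anion transporting polypeptides best known from liver, and 6 of them lie on chromosome 6 within 798.6 kb. Slco1b2, at chr6:141629452-141686646, encodes OATP1B2, the rodent counterpart of the human hepatocyte carriers OATP1B1 and OATP1B3. Slco1a4, at chr6:141805438-141856284, encodes a carrier of bile acids and cardiac glycosides found in liver and in brain capillaries. Slco1a1, at chr6:141907281-141946962, encodes a carrier of bile acids and steroid conjugates that is abundant in the liver of male mice. Slco1c1, which encodes a thyroxine carrier of brain capillaries, lies before Slco1b2, and Slco1a6 and Slco1a5 lie after Slco1a1 (all coordinates GRCm38.p6).

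Sequence before these 3 genes is shown because the first 2 rose with HO2 shRNA and the third was not called in any comparison. RefSeq's promoter windows of 250 bases end just before 1 transcript start for each of the 3 genes, which for Slco1b2 and Slco1a4 lies inside the gene's outer bounds given above. The last 66 and 64 bases of those windows fall within these bounds and are not printed. What is printed runs 5′ to 3′ on the gene's strand, at chr6:141629268-141629451 on the plus strand for Slco1b2, and on the minus strand at chr6:141856285-141856470 for Slco1a4 and chr6:141946963-141947212 for Slco1a1. Capitals mark AGGTCA, a core of the sites of many nuclear receptors, on either strand (TGACCT where it is on the other strand).
Slco1b2: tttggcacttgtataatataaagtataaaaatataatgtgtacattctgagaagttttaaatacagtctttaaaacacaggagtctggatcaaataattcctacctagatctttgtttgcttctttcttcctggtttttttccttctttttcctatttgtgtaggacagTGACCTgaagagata
Slco1a4: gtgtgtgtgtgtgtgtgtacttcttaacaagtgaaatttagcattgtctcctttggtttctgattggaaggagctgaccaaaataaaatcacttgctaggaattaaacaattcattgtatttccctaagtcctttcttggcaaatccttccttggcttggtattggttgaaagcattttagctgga
Slco1a1: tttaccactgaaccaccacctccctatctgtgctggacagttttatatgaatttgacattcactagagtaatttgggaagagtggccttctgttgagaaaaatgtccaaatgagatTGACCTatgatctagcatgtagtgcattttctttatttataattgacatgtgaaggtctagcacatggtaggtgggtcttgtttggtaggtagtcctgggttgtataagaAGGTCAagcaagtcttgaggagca
The Slco1b2 window holds AGGTCA on the reverse strand, 10 to 15 bases before the gene's first annotated base and 76 to 81 bases before the start that the window was drawn from. The Slco1a1 window holds it once on each strand, and the Slco1a4 window does not hold it. Both strands were searched and no matches overlapped. Of 32851 RefSeq promoter windows of that length, 14% hold AGGTCA. Of the 33 members with a window, 5 do. The E-box CACGTG (6.02% of windows), the D-box TTATGTAA (0.819%) and TGACNNNGC, the core of the antioxidant response element (10.2%), were also searched and are not among the letters of the 3 windows.

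Slco1b2 was higher wherever the HO2 hairpin was used. Its log2 signal was 7.46 and 7.40 in HO2 knockdown and 6.75 and 6.85 in the arrays labelled combined, and 5.90 and 5.97 in the arrays labelled HO1 knockout, against 5.90 and 5.72 in control. Both hairpin groups stood above both groups without it with no overlap. Slco1b2 rose by 1.62 in HO2 knockdown against control (SE 0.10, adjusted p = 5.66e-09), a signal ratio of 3.07, and by 0.86 in the arrays labelled combined against those labelled HO1 knockout (SE 0.10, adjusted p = 9.06e-06), a ratio of 1.82. Without a detection call its control signal is not shown to be above background, so these ratios may understate the change in transcript. Genotype alone gave 0.13 (95% interval -0.09 to 0.34, adjusted p = 0.539).

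Slco1a4 rose with the hairpin too, and was lower in the HO1-/- arrays. Its log2 signal was 9.20 and 8.98 in HO2 knockdown, 7.95 and 7.85 in the arrays labelled combined and 6.50 and 6.65 in the arrays labelled HO1 knockout, against 6.94 and 7.15 in control. The 4 groups did not overlap. The rise was 2.05 in HO2 knockdown against control (SE 0.11, adjusted p = 9.34e-10), a signal ratio of 4.13, which ranked 46 from the top among 19937 genes, and 1.32 in the arrays labelled combined against those labelled HO1 knockout (SE 0.11, adjusted p = 1.98e-07), a ratio of 2.50. In the arrays labelled HO1 knockout Slco1a4 fell by 0.47 relative to control (SE 0.11, adjusted p = 0.00879), a call that was lost without control replicate 2 (-0.36, adjusted p = 0.0567) or without HO1 knockout replicate 1 (-0.39, adjusted p = 0.102). Where the hairpin was present the genotype difference was larger: the arrays labelled combined were 1.19 lower than HO2 knockdown (log2 fold change -1.19, adjusted p = 8.08e-07). Macrophage markers rose in that comparison (14 of 20 higher, 0 lower, median 2.36). They also rose in the arrays labelled HO1 knockout against control (14 of 20 higher, 1 lower, median 2.20).

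The remaining Slco1 genes stayed near their control level. Slco1a1 had log2 signals between 4.17 and 4.32 on the 8 arrays, and its log2 fold change was 0.04 in HO2 knockdown (95% interval -0.11 to 0.19), -0.02 in the arrays labelled HO1 knockout and -0.04 in those labelled combined, each against control. All 4 of these genes, Slco1a1, Slco1a5, Slco1a6 and Slco1c1, were dim and none passed the test with HO2 shRNA in cells of either genotype. Slco1a5 differed once, at -0.28 in the arrays labelled combined against HO2 knockdown (adjusted p = 0.031), and lost that call when either array of the 2 groups was left out (adjusted p up to 0.188). Slco1a genes resemble each other in sequence, so signal could be split between them by the array.

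**Figure D2:**
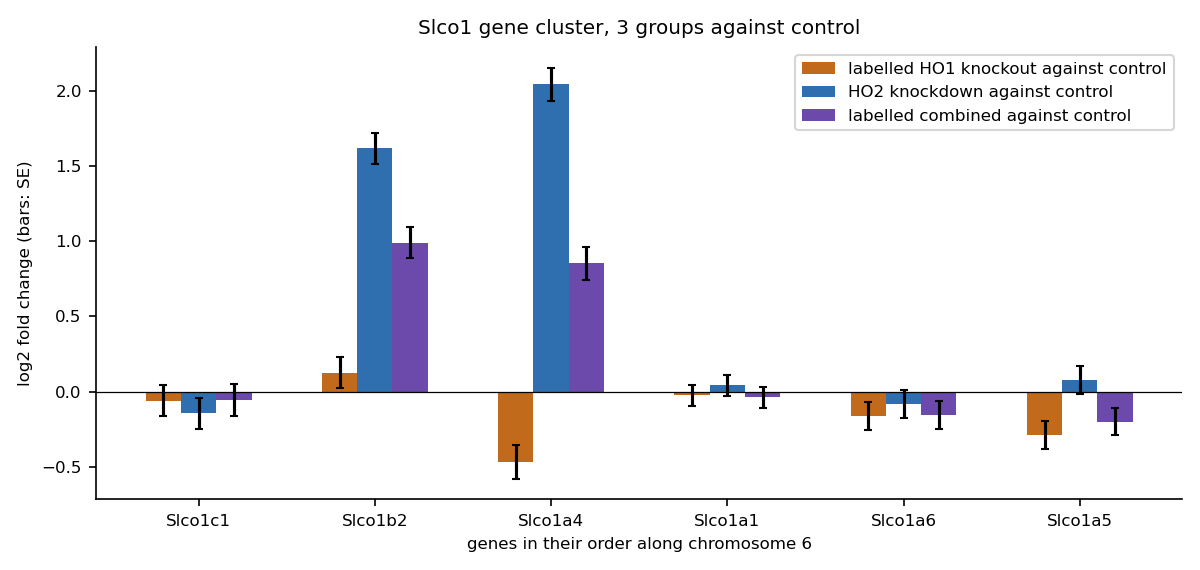
Log2 fold changes against control (bars, with standard errors of the limma fit) of the 6 Slco1 genes in their order along chromosome 6, for the arrays labelled HO1 knockout (orange), HO2 knockdown (blue) and the arrays labelled combined (purple). Slco1b2 and Slco1a4 reach 1.62 and 2.05 in HO2 knockdown, and the other genes stay between -0.29 and 0.08 in all 3 comparisons.

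The rise with the hairpin differed between genotypes for both genes. The interaction, which is the effect of HO2 shRNA in HO1-/- cells minus that in HO1+/+ cells, was -0.75 for Slco1b2 (SE 0.14, adjusted p = 0.00298) and -0.72 for Slco1a4 (SE 0.16, adjusted p = 0.0066). Without HO2 knockdown replicate 1 the value for Slco1a4 was -0.61 and no longer passed (adjusted p = 0.0565). Of all genes tested 12.2% were called for the interaction, 4.67% higher and 7.57% lower, and of the members 1 was higher, 3 were lower and 34 did not pass. For the interaction, 0 of 21 hepatocyte markers were higher and 8 were lower (median -0.26), the direction of Slco1b2 and Slco1a4. Of all genes above the median level, where 17 of the 21 lie, 570 of 9968 were higher and 1380 lower. In the arrays labelled combined against HO2 knockdown 34% of all genes were called. Of the 9968 genes above the median level 1224 rose and 3732 fell in that comparison. Of the 21 hepatocyte markers 7 rose, 2 fell and 12 were not called (median 0.08), while Slco1b2 and Slco1a4 fell by 0.63 and 1.19. Slc10a1, the sodium-dependent bile acid importer of the same membrane, was 2.13 above control in HO2 knockdown and 2.26 above control in the arrays labelled combined. Hmox2 was 0.94 higher on the log2 scale in the arrays labelled combined than in HO2 knockdown, and its part in these differences was not tested.

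**Figure D3:**
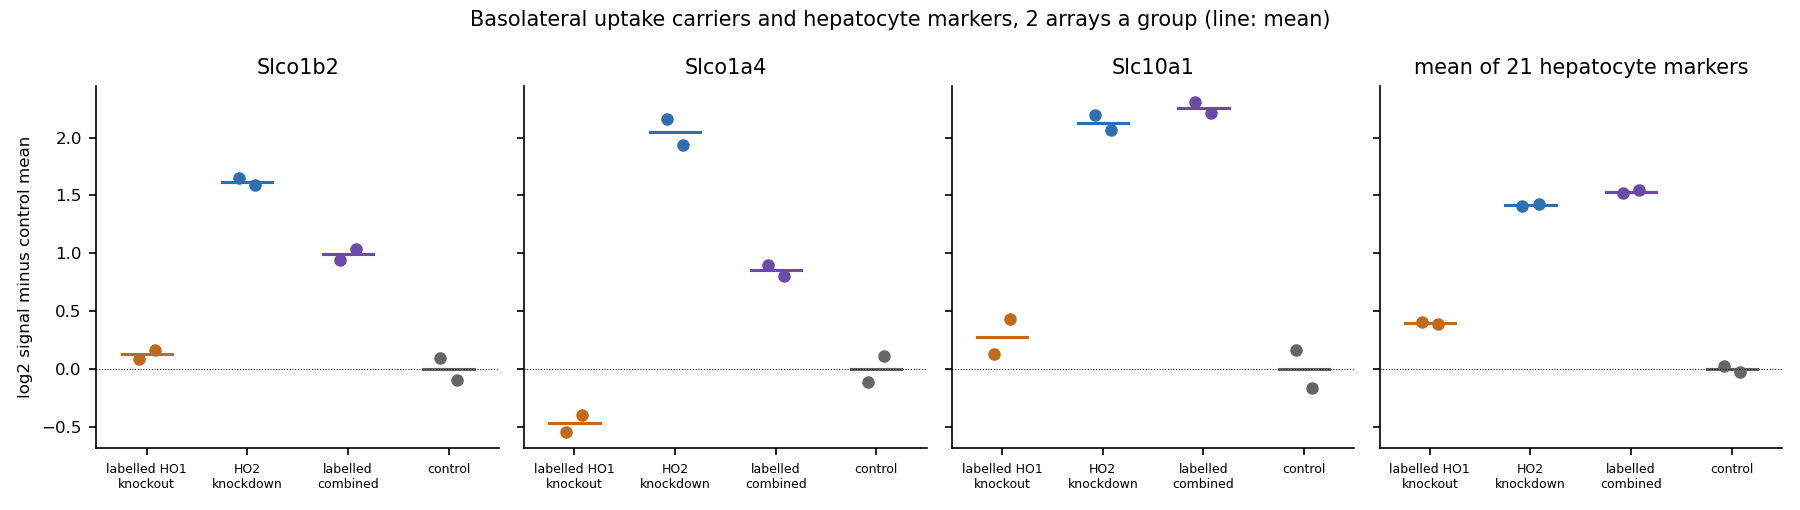
Log2 signal minus the control mean on each array (points; lines are means of 2 arrays) for Slco1b2, Slco1a4, Slc10a1 and the mean of 21 hepatocyte markers, in the arrays labelled HO1 knockout, HO2 knockdown, labelled combined and control. The arrays labelled combined lie at 0.99 for Slco1b2 and 0.85 for Slco1a4, below HO2 knockdown at 1.62 and 2.05, whereas for Slc10a1 (2.26 and 2.13) and the markers (1.53 and 1.42) they lie above it.

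Slco2a1, which encodes the prostaglandin transporter that clears prostaglandins into cells for degradation, rose with the hairpin and was lower in the HO1-/- arrays. It had log2 signals of 12.67 and 12.69 in HO2 knockdown, 12.10 and 12.15 in the arrays labelled combined and 11.66 and 11.75 in the arrays labelled HO1 knockout, against 12.03 and 11.99 in control. The arrays of the 4 groups did not overlap, but the arrays labelled combined were only 0.11 above control, which was not called (adjusted p = 0.0755). The rise with HO2 shRNA was 0.67 in HO1+/+ cells (SE 0.046, adjusted p = 1.46e-08) and 0.42 in HO1-/- cells (SE 0.046, adjusted p = 3.4e-06). The HO1-/- arrays were lower by 0.31 with scrambled shRNA (log2 fold change -0.31, adjusted p = 0.000169) and by 0.56 with HO2 shRNA (log2 fold change -0.56, adjusted p = 2.06e-07). The interaction was -0.25 (adjusted p = 0.0214) and no longer passed when any of HO1 knockout replicate 2 (-0.20, adjusted p = 0.0763), HO2 knockdown replicate 1 (-0.25, adjusted p = 0.0618), HO2 knockdown replicate 2 (-0.24, adjusted p = 0.0673) or combined replicate 1 (-0.22, adjusted p = 0.105) was left out.

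Other prostaglandin genes moved in both directions beside Slco2a1. Of 14 analysed, 2 rose and 4 fell in HO2 knockdown against control, with a median of -0.12, beside 33.2% of all genes called. Hpgd, the dehydrogenase that inactivates prostaglandins after uptake, was 0.72 higher (adjusted p = 6.09e-08), while Ptges, a prostaglandin E synthase, Ptgs2, the inducible cyclooxygenase, and Abcc4, a pump that exports prostaglandins, were at -1.06, -0.51 and -0.47. Of the 14, 0 rose and 2 fell in the arrays labelled HO1 knockout against control, Hpgd at -0.88 (adjusted p = 7.02e-09) and Ptges at -0.54 (adjusted p = 0.000336). Hpgd had the direction of Slco2a1 in each of these comparisons. Slco2a1 is also known from endothelium; of 14 sinusoidal endothelial markers 6 rose and 2 fell in HO2 knockdown against control, and 5 rose and 0 fell in the arrays labelled HO1 knockout against control, where Slco2a1 was lower. Their summed signal ran from 5491 to 5524 in the arrays labelled HO1 knockout, from 3310 to 3435 in HO2 knockdown and from 5805 to 6140 in the arrays labelled combined, against 2795 to 2813 in control. In the arrays labelled HO1 knockout the endothelial markers with the largest rises were Fcgr2b (3.18) and Stab1 (2.20), both of which macrophages also express. Markers of stellate cells and fibroblasts moved in the directions of Slco2a1 in 2 comparisons: 0 of 15 rose and 9 fell in the arrays labelled HO1 knockout against control (median -0.34), and 11 rose and 1 fell in the arrays labelled combined against those labelled HO1 knockout (median 0.38). In HO2 knockdown against control 5 rose and 2 fell (median 0.02). In the arrays labelled combined against HO2 knockdown, where Slco2a1 was lower, 2 rose and 7 fell (median 0.02). Of the 14 endothelial markers 9 rose and 1 fell there (median 0.36). The part of these cells in the Slco2a1 result was not tested. Beside these marker counts, 33.2% of all genes were called in HO2 knockdown against control. The share was 12.8% in the arrays labelled HO1 knockout against control. For the arrays labelled combined it was 23% against those labelled HO1 knockout and 34% against HO2 knockdown.

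Slco3a1, a widely expressed carrier of prostaglandins and thyroxine, showed the largest fall among the members in both hairpin comparisons. It had log2 signals of 10.76 and 10.56 in HO2 knockdown and 10.81 and 10.82 in the arrays labelled combined, and 12.49 and 12.48 in the arrays labelled HO1 knockout, against 12.18 and 12.25 in control. Every hairpin array lay more than 1 log2 unit below every array without it. Slco3a1 fell by 1.55 in HO2 knockdown relative to control (SE 0.058, adjusted p = 1.56e-11), to 34.2% of control, the rank 23 from the bottom among all genes. In the arrays labelled combined it fell by 1.67 relative to those labelled HO1 knockout (SE 0.058, adjusted p = 7.54e-12), to 31.5%. The interaction was -0.12 and did not pass. With scrambled shRNA the arrays labelled HO1 knockout were 0.27 above control (adjusted p = 0.00425), and without a mean-variance trend that call was lost (adjusted p = 0.0586).

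Of the other organic anion transporting polypeptides, Slco4a1, a widely expressed thyroid hormone carrier, was lower in all 3 perturbed groups than in control. Its log2 fold changes against control were -0.34 in the arrays labelled HO1 knockout (adjusted p = 0.0155), -0.38 in HO2 knockdown (adjusted p = 0.00314) and -0.40 in the arrays labelled combined (adjusted p = 0.00185). These 3 comparisons share the control arrays. The first was lost without HO1 knockout replicate 1 (-0.29, adjusted p = 0.141) and the second without HO2 knockdown replicate 1 (-0.32, adjusted p = 0.0535). The arrays labelled combined did not differ detectably from either single perturbation, at -0.06 against those labelled HO1 knockout and -0.03 against HO2 knockdown.

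Slco5a1, a member with no established substrate, had log2 signals of 6.60 and 6.77 in the arrays labelled HO1 knockout, 6.68 and 6.43 in HO2 knockdown and 6.88 and 6.86 in the arrays labelled combined, against 7.06 and 6.80 in control. The arrays labelled HO1 knockout and those of HO2 knockdown overlapped and lay below the other 4, among which the arrays labelled combined fell between the 2 control values. It was at -0.37 in HO2 knockdown against control (adjusted p = 0.0228), at 0.32 in the arrays labelled combined against HO2 knockdown (adjusted p = 0.049, and 0.268 after quantile normalization once more), and its interaction was 0.56 (adjusted p = 0.0394). The first call was lost without control replicate 1 (-0.25, adjusted p = 0.16) or HO2 knockdown replicate 2 (-0.25, adjusted p = 0.231), and the interaction without any of 5 arrays (0.43 to 0.57, adjusted p = 0.098 to 0.164). Genes at or below the median level had a median of -0.11 in HO2 knockdown against control and 0.14 for the interaction, so small changes of dim members in these directions sit on a shift that dim genes share. The same holds for Slco6d1, a gene of the gonadal Slco6 group, called at -0.25 in HO2 knockdown (adjusted p = 0.0296) and not called with arrays centred on their medians (adjusted p = 0.0741) or without control replicate 1 or either HO2 knockdown array (adjusted p 0.11 to 0.282). Slco2b1, a carrier of steroid sulfates, Slco4c1, a kidney carrier, Slco6c1, and Slco6b1, which RefSeq lists as a long noncoding RNA, were called in none of the 6 comparisons.

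**Figure D4:**
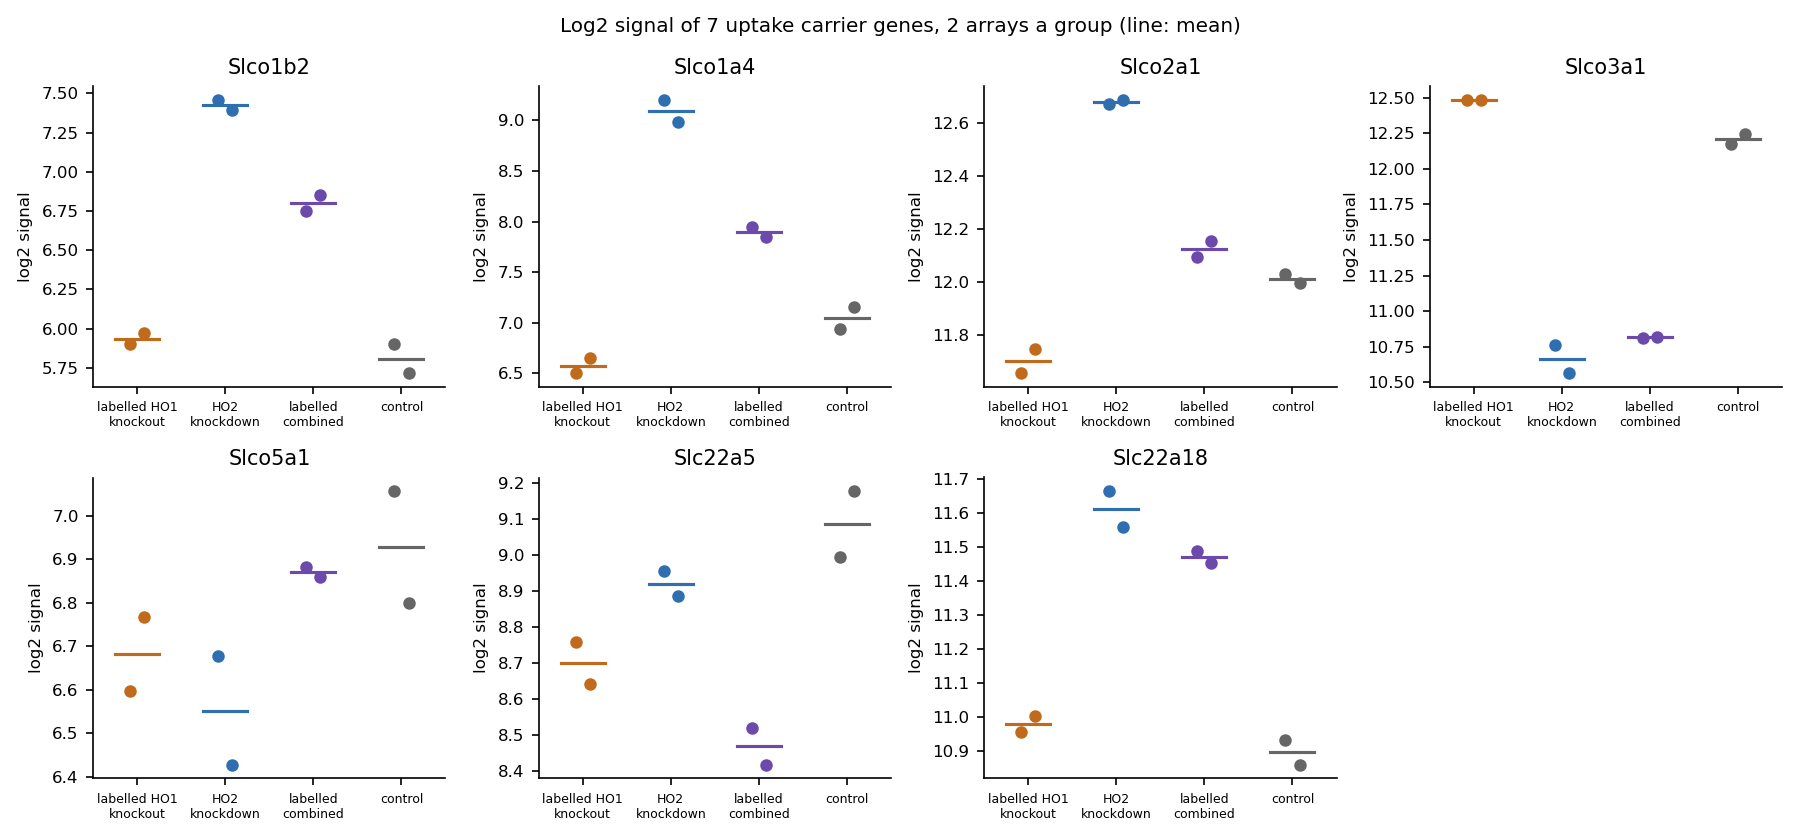
Log2 signal (vertical axes, each with its own range) of 7 members on the 2 arrays of each group (points; lines are group means), in the arrays labelled HO1 knockout, HO2 knockdown, labelled combined and control. Slco3a1 has the 4 hairpin arrays between 10.56 and 10.82 and the other 4 between 12.18 and 12.49, and Slc22a5 has its lowest values, 8.52 and 8.42, in the arrays labelled combined.

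Among the family 22 genes the carnitine carrier moved with the genotype, and the related carriers beside it moved less with the genotype. Slc22a5, at chr11:53864542-53891796, encodes OCTN2, the sodium-dependent carnitine transporter whose loss causes carnitine deficiency. It had log2 signals of 8.76 and 8.64 in the arrays labelled HO1 knockout, 8.96 and 8.89 in HO2 knockdown and 8.52 and 8.42 in the arrays labelled combined, against 8.996 and 9.18 in control. Within each shRNA the HO1-/- arrays lay below the HO1+/+ arrays. The difference was -0.39 with scrambled shRNA (SE 0.086, adjusted p = 0.00615) and -0.45 with HO2 shRNA (SE 0.086, adjusted p = 0.000846), and the interaction was -0.07 (95% interval -0.33 to 0.19). The first call was lost without control replicate 2 (-0.29, adjusted p = 0.0516) or HO1 knockout replicate 2 (-0.33, adjusted p = 0.0822). HO2 shRNA gave -0.17 in HO1+/+ cells (adjusted p = 0.154) and -0.23 in HO1-/- cells (adjusted p = 0.0655), neither of them called. With both perturbations Slc22a5 was at 65.1% of control (log2 fold change -0.62, adjusted p = 3.42e-05).

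Most members did not pass when HO1-/- arrays were set against HO1+/+ arrays, and neither did most genes tested. Genes at or below the median level, where most members lie, were called less often than brighter genes with either shRNA. With scrambled shRNA, 1 member was higher, 4 were lower and 33 did not pass, and 12.8% of all genes were called, 5.62% higher and 7.2% lower. With HO2 shRNA, 1 was higher, 8 were lower and 29 did not pass, and 34% of all genes were called, 13% higher and 21% lower. Slc22a5, Slco1a4 and Slco2a1 were lower in both, which is 60% of the members called in the first and 33.3% of those called in the second, against 59.7% and 22.5% over all genes. With both perturbations against control, 3 members rose, 5 fell and 30 did not pass, and 29.9% of all genes were called, 11.6% higher and 18.3% lower.

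The genes beside Slc22a5 on chromosome 11 encode related carriers. Slc22a4, which encodes OCTN1, the ergothioneine transporter, was 0.24 higher in HO2 knockdown than in control (adjusted p = 0.0352) and 0.23 lower in the arrays labelled combined than in HO2 knockdown (log2 fold change -0.23, adjusted p = 0.036). Both calls were lost when either array of HO2 knockdown was left out (adjusted p 0.101 and 0.168 for the first, 0.111 and 0.162 for the second), and with the replicate number as a block (adjusted p = 0.0523 and 0.0535). Slc22a21, whose product OCTN3 is a carnitine transporter described in mouse, was at -0.40 in the arrays labelled combined against control (adjusted p = 0.00662) and lost that call without combined replicate 2 (-0.35, adjusted p = 0.0908). On the other side of Slc22a5, the interferon regulatory factor gene Irf1 fell by 0.63 in HO2 knockdown relative to control (adjusted p = 5.35e-06), where Slc22a5 was at -0.17 and did not pass (without control replicate 1, -0.26, adjusted p = 0.0479).

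Genes of carnitine synthesis and use were called with the genotype where HO2 shRNA was present. In the arrays labelled combined against HO2 knockdown 1 of 9 rose and 6 fell (median -0.28), among them Cpt2, a mitochondrial carnitine palmitoyltransferase (-0.40, adjusted p = 7.06e-05), and Slc25a20, the mitochondrial carnitine carrier (-0.36, adjusted p = 0.000343). Of all genes above the median level, where 8 of the 9 lie, 1224 of 9968 rose and 3732 fell there. With scrambled shRNA, 0 of the 9 rose and 0 fell in the arrays labelled HO1 knockout against control by limma (median -0.04), with 1 at an unadjusted p under 0.05, Slc25a20 (adjusted p = 0.181), and 12.8% of all genes were called. In HO2 knockdown against control 6 rose and 1 fell (median 0.36), beside 50.5% of genes above the median level called in either direction. Bbox1, the last enzyme of carnitine synthesis, was 2.08 higher there (adjusted p = 2.17e-09) and 1.71 higher in the arrays labelled combined against those labelled HO1 knockout (adjusted p = 3.08e-08). Cpt1a, which commits fatty acids to mitochondrial oxidation, was 0.37 higher in HO2 knockdown than in control, and Slc25a20 0.36. Hepatocyte markers rose in the same HO2 comparison (median 1.08).

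Slc22a18, an imprinted gene next to Cdkn1c on chromosome 7 whose product resembles organic cation carriers, rose with the hairpin. It had log2 signals of 11.66 and 11.56 in HO2 knockdown and 11.49 and 11.45 in the arrays labelled combined, and 10.96 and 11.00 in the arrays labelled HO1 knockout, against 10.93 and 10.86 in control. The hairpin arrays were all above the others. The rise was 0.71 in HO1+/+ cells (SE 0.053, adjusted p = 4.18e-08) and 0.49 in HO1-/- cells (SE 0.053, adjusted p = 3.66e-06). The difference between genotypes, -0.22, did not pass as deposited and passed with arrays centred on their medians (-0.27, adjusted p = 0.0358) or with dim genes removed (adjusted p = 0.0409). Its imprinted neighbours Cdkn1c, a cell cycle inhibitor, and Phlda2, a gene that restrains placental growth, were not called higher with the hairpin. In HO2 knockdown against control Cdkn1c was at 0.08 (adjusted p = 0.483) and Phlda2 at -0.23 (adjusted p = 0.132). In the arrays labelled combined against those labelled HO1 knockout Phlda2 was at -0.71 (adjusted p = 0.000221). Cdkn1c was at 0.25 there, the direction of Slc22a18, and just missed the threshold (SE 0.088, adjusted p = 0.0533).

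Slc22a23, a member with no established substrate, differed mainly between the hairpin groups. It was at -0.36 in the arrays labelled combined against HO2 knockdown (SE 0.056, adjusted p = 0.000173) and at 0.19 in HO2 knockdown against control (adjusted p = 0.0157). The second call was lost without HO2 knockdown replicate 1 (0.14, adjusted p = 0.165), and one of -0.17 in the arrays labelled combined against control without any of 3 arrays (adjusted p 0.0814 to 0.29). Slc22a7, which encodes OAT2, an organic anion carrier of liver and kidney, was dim, at 6.89 and 6.63 in HO2 knockdown against 7.22 and 6.97 in control. Its log2 fold change of -0.33 (adjusted p = 0.0373) was no longer called with arrays centred on their medians (-0.28, adjusted p = 0.0698), without control replicate 1 (-0.21, adjusted p = 0.232) or without HO2 knockdown replicate 2 (-0.20, adjusted p = 0.323).

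Single calls were also made for 3 members known from other tissues or little studied. Slc22a16, a carnitine carrier of testis, was at -0.37 in HO2 knockdown against control (adjusted p = 0.0251; highest adjusted p 0.227, without control replicate 1). Slc22a14, a sperm protein gene, was at -0.39 in the arrays labelled combined against HO2 knockdown (adjusted p = 0.0101; highest adjusted p 0.109, without HO2 knockdown replicate 1). Slc22a15 was at -0.23 in the arrays labelled combined against those labelled HO1 knockout (adjusted p = 0.0483; highest adjusted p 0.255, without combined replicate 1). Each of these lost its call when any one of 3 or more arrays was left out.

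The other family 22 genes were called in none of the 6 comparisons. They include the kidney carriers Slc22a2 (OCT2, for organic cations), Slc22a6 and Slc22a8 (OAT1 and OAT3, for organic anions) and Slc22a12 (the urate carrier URAT1). They also include Slc22a13, Slc22a13b, which RefSeq lists as a transcribed pseudogene, Slc22a17, Slc22a19, Slc22a20 and Slc22a22, and the mutually similar Slc22a26, Slc22a27, Slc22a29 and Slc22a30, between which the array could split or share signal. All but Slc22a13 and Slc22a17 were at or below the median level. In all, 17 of the 38 members were called in at least 1 of the 6 comparisons.

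Among carriers outside the 2 families, Slc10a1 rose with HO2 shRNA in cells of either genotype. Of 15 carriers of bile acids and organic solutes analysed, 6 rose and 1 fell in HO2 knockdown against control (median 0.16), beside 33.2% of all genes called. Slc10a1 was 2.13 higher (adjusted p = 9.34e-10) and Slc10a6, a carrier of sulfated steroids, 1.20 higher, while Slc19a1, the reduced folate carrier, was at -0.45. Slc10a1 had log2 signals of 9.69 and 9.56 in HO2 knockdown and 9.80 and 9.71 in the arrays labelled combined, and 7.63 and 7.93 in the arrays labelled HO1 knockout, against 7.66 and 7.34 in control. Its 4 hairpin arrays stood above the other 4.

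Of 13 ABC efflux pumps, 7 rose and 2 fell in HO2 knockdown against control (median 0.36), and 6 rose and 2 fell in the arrays labelled combined against those labelled HO1 knockout (median 0.19). Of all genes above the median level, where 12 of the 13 lie, 50.5% and 38.2% were called in either direction. The largest rises were those of Abcg5 and Abcg8, which export sterols into bile and were 2.04 and 1.99 higher in HO2 knockdown than in control, and of Abcb4, which exports phospholipid, at 2.01. Other pumps of the bile canaliculus were at 0.58 (Abcb11, called), 0.36 (Abcc2, called) and -0.02 (Abcg2, not called). Abcc1, a pump of glutathione conjugates that is low in mature hepatocytes, was at -1.45 (adjusted p = 2.91e-10). Of the same pumps 1 rose and 4 fell in the arrays labelled HO1 knockout against control, beside 12.8% of all genes called. Of the 9968 genes above the median level 786 rose and 1185 fell there. Abcc3, which returns bilirubin and bile acid conjugates to blood, was 0.26 higher there (adjusted p = 0.0011), and Abcb11, the bile salt export pump, and Abcc2, which exports bilirubin glucuronides, were at -0.58 (adjusted p = 0.00633) and -0.22 (adjusted p = 0.00304).

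Transcription factor genes known to govern hepatic uptake carriers rose with the hairpin, and several rose less in HO1-/- cells. Of 17 analysed, 12 rose and 1 fell in HO2 knockdown against control (median 0.43), and 8 rose and 2 fell in the arrays labelled combined against those labelled HO1 knockout (median 0.21). Of all genes above the median level, where 16 of the 17 lie, 50.5% and 38.2% were called in these comparisons. Nr1i2, the pregnane X receptor, which is known to raise Slco1a4 transcription in mouse liver, was 1.62 higher in HO2 knockdown than in control (SE 0.094, adjusted p = 2.22e-09). It had log2 signals of 10.35 and 10.16 in HO2 knockdown, 9.59 and 9.51 in the arrays labelled combined and 8.86 and 8.67 in the arrays labelled HO1 knockout, against 8.51 and 8.75 in control. Its interaction was -0.84 (adjusted p = 0.000701), beside -0.72 for Slco1a4 and -0.75 for Slco1b2. The part of Nr1i2 in the results of these carriers was not tested. In all, 6 of the 17 were lower and 0 higher for the interaction, beside 1380 lower and 570 higher of the 9968 genes above the median level. Among the 6 were Hnf4a, a master regulator of hepatocytes (-0.29, adjusted p = 0.00486), Foxa1, a liver pioneer factor (-0.51, adjusted p = 0.000735), and Nr0b2, a repressor induced by bile acids (-0.59, adjusted p = 0.0111).

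The list of bilirubin formation and handling had 8 genes analysed: both heme oxygenases, both biliverdin reductases and 4 glutathione S-transferases, a family that binds bilirubin in hepatocytes. Of these, 2 rose (Gstm1 at 0.54 and Hmox1 at 0.13) and 2 fell (Hmox2 and Blvrb) in HO2 knockdown against control. All 8 lie above the median level, where 50.5% of genes were called in that comparison. In the arrays labelled HO1 knockout against control 3 rose and 1 fell, beside 786 higher and 1185 lower of the 9968 genes above the median level. Hmox1 itself was among the 3 (0.54, adjusted p = 3.37e-07), although these cells are labelled HO1-/-. Blvra, the main biliverdin reductase, was 0.67 higher in the arrays labelled HO1 knockout than in control (adjusted p = 1.38e-05). Blvrb, the second biliverdin reductase, was at -0.34 there (adjusted p = 0.000254) and at -0.61 in HO2 knockdown against control (adjusted p = 1.78e-07). Macrophage markers rose in the first of these comparisons (14 of 20, 1 fell, median 2.20).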

How the data were processed

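For 8 whole-transcript arrays, the authors deposited 1 log2 signal per probe set and array. Per the submitters' processing notes they used RMA (robust multi-array averaging), affy and R 2.15.0; the chip definition file is not given in the sources used here. RMA quantile normalizes the arrays and compresses differences of dim probe sets. Per the labels' protocols, 300 ng of total RNA was used per array. Probe sets with exactly 1 symbol in the platform table were kept (21640 of 34760; 1321 carried several symbols and 11799 none), with the brightest per gene, leaving 19937 genes. All 38 members matched RefSeq by gene ID. Array medians ran from 7.61 to 7.70 (log2), and arrays correlated at 0.997 to 0.999 within groups. The number of arrays limits the precision.

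All 8 arrays entered 1 model of 4 group means in limma 3.58.1 under R 4.3.3, with a mean-variance trend (4 residual and 11.2 prior degrees of freedom). The two-sided p-values were adjusted across the whole table with the Benjamini-Hochberg method and called under 0.05; SE and 95% intervals are the moderated ones. The fit was tested on simulated data. Members called in any of the 6 comparisons with a log2 change of at least 0.5 are given array by array, and lists are described by counts, naming members among the 4 smallest p-values. The members and lists were chosen with earlier results of these data known. Alternatives were the variance model, array weights, 2 scalings, a filter on dim genes, the mean of a gene's probe sets, the replicate block, fits of the compared groups alone, and leaving out each array.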

Additional observations from a re-analysis of the deposited data

Results flagged for a closer look

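The effect of HO2 shRNA differed between HO1-/- and HO1+/+ cells for 4 members by the limma interaction test. The difference was -0.75 for Slco1b2 (adjusted p = 0.00298), -0.72 for Slco1a4 (adjusted p = 0.0066), -0.25 for Slco2a1 (adjusted p = 0.0214) and 0.56 for Slco5a1 (adjusted p = 0.0394). The first 3 rose in both genotypes and rose less in HO1-/- cells. Slco5a1 was at -0.37 in HO1+/+ cells and at 0.19, not called, in HO1-/- cells. With 2 arrays a group, single arrays were not tested for standing apart from their group.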

How the results depend on the processing

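Of the 44 member values called, 23 kept their direction and call under every setting run, and 21 lost the call under at least 1; none reversed. Those for Slco1b2, for Slc22a18 with the hairpin and for Slco3a1 with the hairpin were among the 23. No member had several probe sets, so taking the mean of a gene's probe sets could not change a member's signal. Members at or below the median level, Slco1b2 among them, were not tested with dim genes removed. Each of the following counts is of members called. For HO2 knockdown against control it was 12, and 7 after quantile normalization once more and 7 with genes at or below the median level removed, which drops Slco1a4 and Slco1b2; it ran from 7 (without either HO2 knockdown array) to 17 (without control replicate 2) when single arrays were left out. For the arrays labelled combined against HO2 knockdown it was 9, and 15 with array weights or with only those groups fitted, and from 5 (without either combined array) to 16 (without either control array) without single arrays. For the interaction it was 4, and 2 without the mean-variance trend, after quantile normalization or without dim genes, and from 2 (without either HO2 knockdown array or combined replicate 1) to 11 (without control replicate 2) without single arrays. For the arrays labelled HO1 knockout against control it was 5, and 3 to 6 without single arrays (3 without control replicate 2 or HO1 knockout replicate 1). For the arrays labelled combined against control and against those labelled HO1 knockout it was 8 and 6, and ran from 6 to 10 and from 5 to 8. Apart from the removal of genes and arrays by construction, the cause was not tested. Centring moved the share of all calls that were higher to 62.9%, against 49.7% as deposited, in HO2 knockdown against control, to 24.1% against 38.2% in the arrays labelled combined against HO2 knockdown, and to 27.1% against 38.2% for the interaction.

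Samples share replicate numbers, but the labels tie no number to a mouse or day, and the differences between replicates 1 and 2 correlated across genes at -0.261 to 0.122 over the 6 pairs of groups. With the replicate block the counts were 11 for HO2 knockdown against control, 5 for the arrays labelled combined against those labelled HO1 knockout and 8 against HO2 knockdown, and the other 3 stayed at 5, 8 and 4.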

Other observations

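The probe set shared by Slc22a28, Slc22a29 and Slc22a30 had log2 signals of 4.84 and 4.81 in the arrays labelled HO1 knockout, 4.72 and 4.71 in HO2 knockdown and 4.66 and 4.53 in the arrays labelled combined, against 4.83 and 4.89 in control. It was outside the tests, since it names several genes.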
